A study of Rattus norvegicus with 2 samples.

Results

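Of the miRNAs that mark heart and skeletal muscle, 3 gave signals at least 2-fold lower in a rat carotid artery 10 days after balloon injury than in an uninjured carotid artery, namely miR-1 and both forms of miR-133. The forms of miR-133 differ at 1 base and may not be separate readings, and the injured signal of miR-1 was at the edge of detection. None of the 3 was 2-fold lower with 10 added to every signal. The group described here holds 6 of the 350 rat miRNAs on the array: rno-miR-1, rno-miR-133a, rno-miR-133b, rno-miR-206, rno-miR-208 and rno-miR-499, written below without the prefix for rat. They were taken by name, as the muscle miRNAs and their relatives, with earlier results of these data known. All 6 have a row on each array. Of the 6, 4 were detected on both arrays and 2, miR-206 and miR-208, on neither.

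Each group was 1 array, so no difference below has a replicate error, a test or a p-value. The uninjured group was a carotid artery without injury, and the injured group a carotid artery collected 10 days after balloon injury. In this procedure an inflated catheter strips the endothelium, and smooth muscle cells then divide and build a neointima. Both came from male Sprague-Dawley rats of about 250 g, and the number of rats or arteries pooled into each RNA sample is unknown here. Total RNA was labelled with Cy3 and the signal is a linear intensity in arbitrary units. Each signal carries a flag of 0 or 1, read here as not detected and detected; 166 miRNAs were detected on the uninjured array, 184 on the injured array and 158 on both. The smooth muscle miRNAs miR-143 and miR-145, which an artery should hold, were detected on both arrays. miRNAs of red cells (miR-451 and miR-144) and leukocytes (such as miR-223) were also detected on both arrays.

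A miRNA is a short RNA that guides a silencing complex to messenger RNAs whose 3′ ends pair with its seed, the bases near its own 5′ end. miR-1, miR-133, miR-206, miR-208 and miR-499 are called myomiRs because cardiac and skeletal muscle make them in abundance, under factors such as serum response factor, MEF2 and MyoD. miR-1 and miR-133a are cut from shared transcripts: miR-1 favours muscle differentiation, and miR-133 represses serum response factor and, in vascular smooth muscle, the factor Sp1. miR-206 and miR-133b form a second such pair, with miR-206 largely restricted to skeletal muscle. miR-208a and miR-499 lie inside myosin heavy chain genes and take part in the choice between fast and slow myosins.

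The mature sequences are shown because the 6 members fall into seed groups and because some differ by so little that a probe may not separate them. All 6 were matched to RefSeq (build GRCr8), with the array names without an arm taken as the main strand of each hairpin and miR-208 as miR-208a. Capitals mark the seed, bases 2 to 8 from the 5′ end.
miR-1: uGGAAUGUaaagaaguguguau
miR-206: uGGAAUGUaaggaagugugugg
miR-133a: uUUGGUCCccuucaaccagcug
miR-133b: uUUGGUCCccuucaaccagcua
miR-208: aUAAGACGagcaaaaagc
miR-499: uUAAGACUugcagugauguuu

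miR-1 and miR-206 have the same seed and 19 of 22 bases in common, the differences being A11G, A21G and U22G with miR-1 first and positions counted from the 5′ end. miR-133a and miR-133b have the same seed and differ at 1 of 22 bases, the last one, G22A. Whether the probes of either pair tell the members apart was not tested. miR-208 and miR-499 match at 10 of the 18 positions that the shorter RefSeq entry allows, and within the seed they differ at 1 base, G8U. Among 724 mature rat miRNAs in RefSeq, the seed of miR-1 and miR-206 recurs only in miR-1b, that of miR-208 only in miR-208b, and those of miR-133 and miR-499 in no other entry.

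The loci pair the members in another way than the seeds do. The mature miR-1 lies at chr18:2160339-2160360 and miR-133a at chr18:2157886-2157907, both on the minus strand, with 2368 bases between their hairpins and within the span of the protein-coding gene Mib1. miR-206 (chr9:30590747-30590768) and miR-133b (chr9:30594629-30594650) are both on the plus strand of chromosome 9, with 3801 bases between their hairpins, within the span of 1 long non-coding RNA gene. miR-208 (chr15:32395568-32395585, minus strand) lies within Myh6, which encodes the alpha cardiac myosin heavy chain, and miR-499 (chr3:164570616-164570636, plus strand) within Myh7b. The hairpins of the 3 members whose signals differed most are printed to show where each mature strand, in capitals, is cut from.
Mir1: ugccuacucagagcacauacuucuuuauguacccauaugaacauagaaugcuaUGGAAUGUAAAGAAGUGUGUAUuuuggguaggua
Mir133a1: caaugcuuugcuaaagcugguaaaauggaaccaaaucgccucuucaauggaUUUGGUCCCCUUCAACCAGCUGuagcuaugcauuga
Mir133b: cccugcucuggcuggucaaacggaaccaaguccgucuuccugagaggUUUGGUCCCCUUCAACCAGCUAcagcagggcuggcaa

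miR-133b gave the brightest signals of the group. Its signal was 365 without injury and 168 after it, so the injured array kept 46.0% of it as deposited. Both values stood far above the highest signal of any undetected miRNA, which was 8.84 (uninjured) and 5.98 (injured), by 41.3 times and 28.1 times. For comparison between arrays, each log2 signal was set against its array's 75th percentile over the 158 miRNAs detected on both, which took out a shift of -0.088 between the arrays. On this scale miR-133b had a log2 ratio (injured minus uninjured) of -1.03, a 2.05-fold lower signal in the injured artery. Of the members with low ratios it is the one measured with the most signal.

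miR-133a, which differs from miR-133b at the last base only, gave a signal of 33.7 in the uninjured and 14.9 in the injured artery. These were 3.81 times and 2.49 times the highest undetected signal of their arrays. Its log2 ratio was -1.09, a 2.13-fold lower signal. The log2 ratios of miR-133a and miR-133b differed by -0.056 (miR-133a minus miR-133b). Because the probes may share target RNA, they may not be independent readings, though the counts below include each of them separately.

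miR-1 had the lowest log2 ratio of the 4 detected members, on low signals. Its signal was 21.2 in the uninjured artery and 6.64 in the injured one, a log2 ratio of -1.58, which leaves 33.3% of the uninjured level after scaling. The uninjured value was 2.40 times the highest undetected signal, but the injured value was 1.11 times it, and only 11 of the 184 miRNAs detected on the injured array were dimmer. The injured signal was also 1.35 times the brightest negative control feature of its array (4.92). The size of this ratio therefore rests on a value at the edge of detection. The other strand of the miR-1 hairpin, miR-1*, was flagged 0 on both arrays, with listed signals of 1 and 0.552.

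miR-499 was detected on both arrays near the same limit, with signals of 10.1 uninjured and 7.73 injured. These were 1.14 times and 1.29 times the highest undetected signal. Its log2 ratio was -0.29, a 1.23-fold lower signal, which does not reach 2-fold. Its nearest miRNAs by log2 ratio were miR-10a-5p (-0.29), miR-331 (-0.31) and miR-100 (-0.27), the farthest of them 0.022 away.

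miR-206, the skeletal muscle member, was not detected on either array, with listed signals of 0.755 uninjured and 2.06 injured, both under the brightest negative control of their arrays (8.19 and 4.92). miR-208, the cardiac member, was not detected either and was listed at exactly 1 on both arrays. The value 1 is shared by 109 undetected miRNAs on each array. No fold is given for either miRNA. The authors' deposited ratio table, which divides the injured by the uninjured signal without regard to the flags, lists 2.73 for miR-206 and 1 for miR-208.

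**Figure D1:**
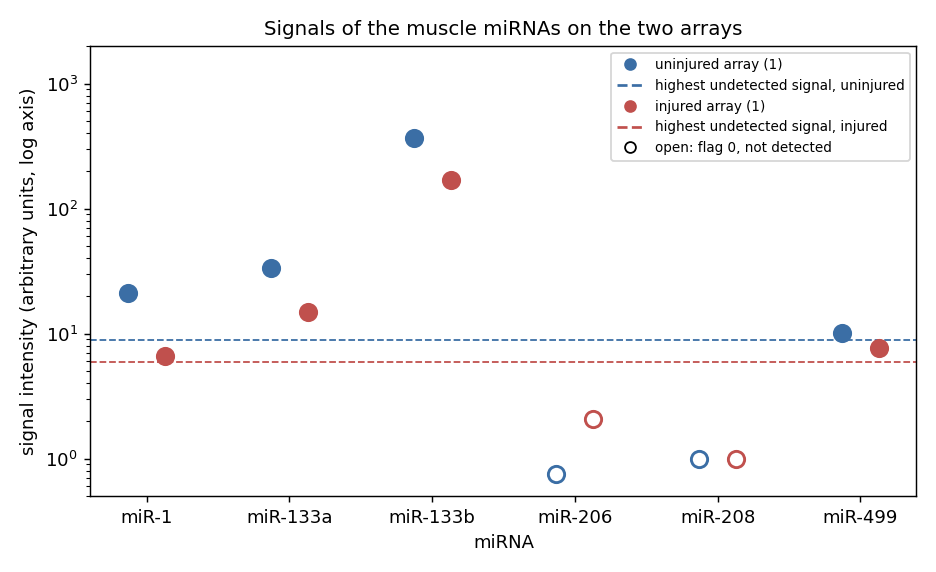
Signal intensity (arbitrary units, log axis) of the 6 muscle miRNAs on the uninjured (blue) and injured (red) array, 1 array each. Filled points were detected, open points were not, and the dashed lines mark the highest undetected signal of each array (8.84 and 5.98); miR-133b stands well above both lines, while the injured signal of miR-1 (6.64) and both signals of miR-499 lie close to them.

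Set against the array as a whole, the detected muscle miRNAs lay towards the low end. Of the 4 detected on both arrays 3 were at least 2-fold lower in the injured artery, against 6 of all 158 (3.80%), which include these 3 members. None was at least 2-fold higher, which for 4 miRNAs differs little from the 20 of 158 (12.7%) over the array. All 4 had a log2 ratio below 0, against 55 of 158 (34.8%), a share that depends on the scaling. The median of the 4 was -1.06, and that of all 158 was 0.14, with quartiles of -0.14 and 0.58. Counted from the lowest of the 158 log2 ratios, miR-1 was at place 2, miR-133a at 5, miR-133b at 6 and miR-499 at 27. The erythroid miR-451 (-2.47) lay below miR-1. Around the 2-fold threshold, miR-133b (-1.03) was the last miRNA inside and miR-218 (-0.96) the first outside, so the call of miR-133b rests on a narrow margin. The counts hold few independent readings, since miR-133a and miR-133b nearly share a sequence and miR-1 and miR-133a share transcripts.

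The counts among dim miRNAs are given because miR-1 and miR-133a are dim. Among the 79 miRNAs with a mean log2 signal under the median, 3 were at least 2-fold lower (3.80%), 11 were at least 2-fold higher (13.9%), 29 were lower at any size (36.7%), and the median log2 ratio was 0.18. The 3 were miR-1, miR-133a and the erythroid miR-144. The 79 brighter miRNAs had a median of 0.12.

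**Figure D2:**
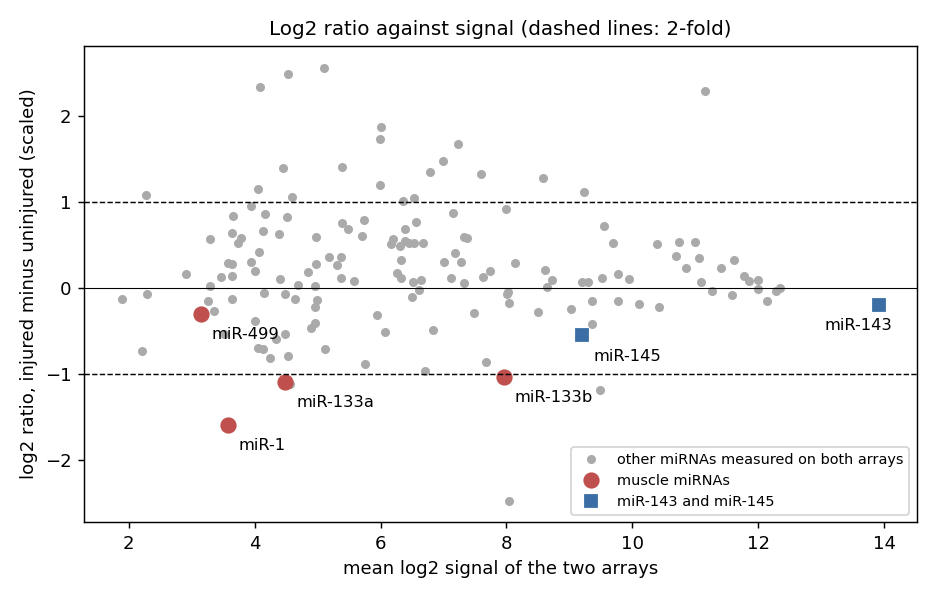
Log2 ratio (injured minus uninjured, scaled) against the mean log2 signal of the 2 arrays, 1 point for each of the 158 miRNAs detected on both. The muscle miRNAs (red) miR-1, miR-133a and miR-133b lie below the dashed line for 2-fold lower while miR-499 (-0.29) lies above it, and miR-143 and miR-145 (blue squares) lie between that line and 0.

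The scaling changed the size of the members' ratios but neither their direction nor their 2-fold calls. Under 6 other ways of scaling the arrays, including none, miR-1 ranged from -2.18 to -1.65, miR-133a from -1.68 to -1.16, miR-133b from -1.62 to -1.10 and miR-499 from -0.89 to -0.36. The scaling used thus gave the smallest differences, and all other scalings moved the bulk of miRNAs down as well. The median move of the 158 log2 ratios ranged from -0.067 (muscle miRNAs left out of the percentile) to -0.59 (control features aligned). The medians and the shares below 0 given above for all and for dim miRNAs therefore hold for the scaling used only. The 3 members stayed at least 2-fold lower in each of the 6, while the count among all miRNAs went from 6 to between 7 and 23. The calls did not hold under an offset. With 10 added to every signal before the log, none of the members was 2-fold lower, with log2 ratios of -0.82 for miR-1, -0.72 for miR-133a, -0.99 for miR-133b and -0.094 for miR-499, and 2 miRNAs of all measured were. The bright miR-133b moved least under the offset and miR-1 most.

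**Figure D3:**
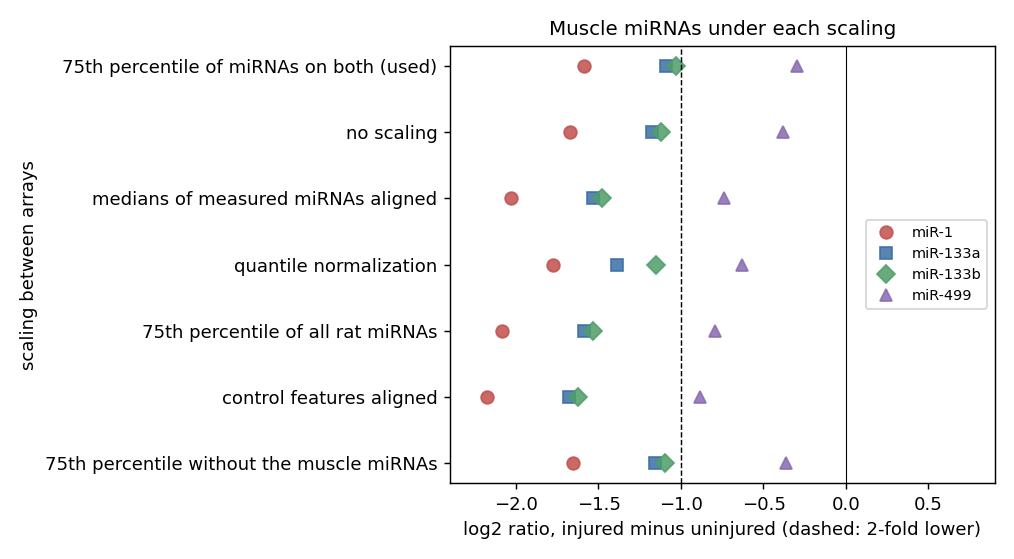
Log2 ratio (injured minus uninjured) of the 4 detected muscle miRNAs under the scaling used (top) and 6 others, 1 value each. miR-1, miR-133a and miR-133b lie left of the dashed line for 2-fold lower in every scaling, and miR-499 lies between that line and 0.

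The members differed from each other in ways that a uniform scaling does not touch. miR-1, which shares transcripts with miR-133a, had a log2 ratio lower than that of miR-133a by a difference of -0.50, and with quantile normalization, the only scaling that is not uniform, of -0.38. The injured signal of miR-1 that enters this difference is the one at the edge of detection. An offset does touch such differences. With 10 added to every signal miR-1 (-0.82) and miR-133a (-0.72) lay closer together, and miR-133b (-0.99) was the lowest member. With the median negative control subtracted miR-1 (-1.85) and miR-133a (-1.15) lay farther apart. miR-133b and miR-499 differed by -0.74 (-0.52 with quantile normalization). miR-499, inside Myh7b, thus did not follow the miR-133 members at the same size, again on signals near the limit.

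The smooth muscle miRNAs miR-143 and miR-145, which are made from 1 cluster and uphold the contractile state of smooth muscle, were lower by less. Their log2 ratios were -0.19 and -0.55, both under 2-fold with the scaling used. With the control features aligned the median of the pair was -0.96, with miR-145 the lower, so whether miR-145 reached 2-fold depended on the scaling. With quantile normalization miR-143 did not differ, since the ratio of miR-1 and its difference from miR-143 were both -1.77. Relative to miR-143, miR-1 was lower by a difference of -1.39, miR-133a by -0.89, miR-133b by -0.84 and miR-499 by -0.10. Relative to miR-145 the differences were -1.04 for miR-1, -0.54 for miR-133a, -0.48 for miR-133b and 0.25 for miR-499. The last of these turned to -0.095 with quantile normalization, and the other differences from miR-143 and miR-145 kept their sign in every scaling. These differences were not computed with the offset or with the median negative control subtracted. The ratio of miR-499 itself moved to -0.094 and -0.11 in those settings. The sign of its small difference from miR-143 is therefore given for the scalings only. In artery RNA, fewer cells that make a miRNA and less of it per cell cannot be told apart.

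A wider list held miRNAs that act in muscle differentiation and growth without being muscle-specific. Of the 15 in this list 14 had a row on the arrays and 13 were detected on both; none was at least 2-fold lower (3.80% over all 158), 3 were at least 2-fold higher (12.7% over all 158), and the median log2 ratio was 0.52 against 0.14 for all 158. Aligning the control features turned the list's median to -0.076, and it was above 0 in the other 5 scalings. The count of 3 holds for the scaling used and was not repeated under the others. Over all miRNAs the number at least 2-fold higher was 20 with the scaling used and between 7 and 17 in the 6 others. The highest were miR-221 (1.47), which represses the cell-cycle inhibitor p27, and miR-214 (1.12). The lowest were miR-29c (-0.18), of a family that targets collagens, and miR-26a (-0.083). miR-503, of a family that restrains the cell cycle, was detected on the injured array only, with a signal of 15.9.

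Markers of other cells also differed between the arrays, and their part in the muscle miRNA ratios was not tested. Over all 158 miRNAs 3.80% were at least 2-fold lower and 12.7% at least 2-fold higher. Both erythroid miRNAs were at least 2-fold lower, with a median log2 ratio of -1.79. Their summed detected signal was 677 uninjured and 125 injured, of which miR-451 alone gave 641 and 109. Of the 7 leukocyte miRNAs listed 6 had a row on the arrays. Of these 6, 3 were at least 2-fold higher and none 2-fold lower, with a median of 1.22 and a summed signal of 316 and 636. Among them miR-150 was lower (-0.50) and miR-342-3p lay near 0 (0.19). Of the 10 nerve miRNAs 6 were detected on the uninjured array only, 1 on the injured array only, 2 on both and 1 on neither. Over all 350 miRNAs, 8 were detected on the uninjured array only and 26 on the injured array only. The endothelial miR-126 and miR-126* lay at 0.078 and -0.22. Of the 6 striated muscle miRNAs themselves 4 were detected on both arrays, and miR-206 (skeletal) and miR-208 (cardiac) on neither. Their summed detected signal was 430 uninjured and 197 injured, of which miR-133b alone gave 365 and 168.

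**Figure D4:**
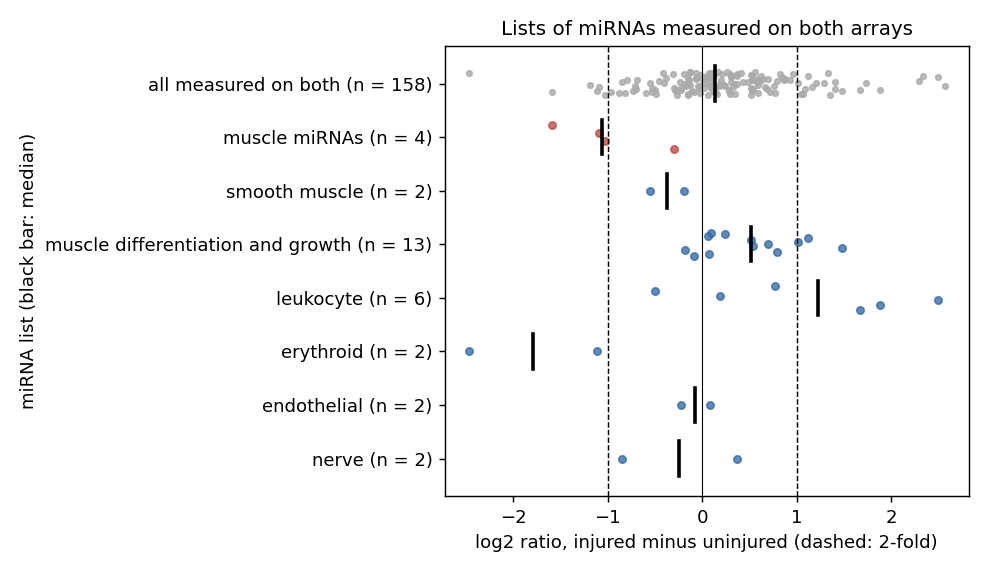
Log2 ratio (injured minus uninjured, scaled) of each miRNA detected on both arrays, by list, with the list's median as a black bar. The 4 muscle miRNAs (red, median -1.06) and the 2 erythroid miRNAs (median -1.79) lie low, the 13 differentiation and growth miRNAs have a median of 0.52 and the 6 leukocyte miRNAs of 1.22, against 0.14 for all 158.

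By nearness of log2 ratio over the 2 arrays, the same 3 non-members came closest to miR-1, miR-133a and miR-133b: miR-494, miR-144 and miR-218. For miR-133a the closest was miR-144 (0.020 away), for miR-133b miR-218 (0.071 away) and for miR-1 miR-494 (0.40 away). These non-members held places 3 (miR-494), 4 (miR-144) and 7 (miR-218) from the lowest of the 158, beside the members at 2, 5 and 6. That they are shared thus follows from the ranks. With 1 array in each group such nearness says only that the ratios have like sizes, and miR-1 had no close non-member.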

How the data were processed

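Total RNA from 1 uninjured and 1 injured rat carotid artery sample was extracted with Trizol and Cy3-labelled using Agilent's miRNA reagent, per the labels' protocols. In the deposited files each of 350 rat miRNAs and 22 control features has a linear intensity and a flag; no source used here names the scanner software, background handling or normalization. The deposited series table is a linear ratio. It equalled injured over uninjured signal (relative tolerance 1e-05) for all 349 shared names, so it adds no scaling to the deposited signals.

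The 6 members and all lists were chosen with earlier results of these data known. A flag of 1 was read as detection: it was 0 on all 7 negative controls. Log2 intensities were centred on the 75th percentile of the 158 miRNAs detected on both arrays (signals of 401 and 377). A 2-fold difference was used to describe, not to test. Precision is limited by the number of arrays. Named non-members were fixed by rule: the 3 nearest to each detected member by log2 ratio and the 2 highest and 2 lowest of the differentiation list; others named are list markers or neighbours of the threshold, chosen after their values were seen. The code of the scaling used was run on simulated data without noise and with every miRNA detected. That checks the code only, not how well the scaling suits these arrays. Python 3.11.15, numpy 2.4.6 and pandas 2.3.3 were used.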

Additional observations from a re-analysis of the deposited data

How the results depend on the processing

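With 1 array per group, none of these alternatives measures replicate error. The log2 ratios of miR-1, miR-133a, miR-133b and miR-499 were -1.67, -1.18, -1.12 and -0.38 without scaling and, equally, in the series value table. They were -2.03, -1.53, -1.48 and -0.74 with the medians aligned; -1.77, -1.39, -1.15 and -0.63 with quantile normalization; and -2.08, -1.59, -1.53 and -0.79 when the 75th percentile was taken over all 350 miRNAs. They were -2.18, -1.68, -1.62 and -0.89 with the control features aligned, and -1.65, -1.16, -1.10 and -0.36 with the muscle miRNAs left out of the percentile. With 10 added to each signal they were -0.82, -0.72, -0.99 and -0.094, since an offset shrinks the ratios of dim miRNAs. The next 2 settings were added after seeing the data, as were the counts under the offset given below. With detection also requiring a signal above the highest undetected one (151 miRNAs) they were -1.68, -1.18, -1.12 and -0.39, and with the median negative control subtracted -1.85, -1.15, -1.06 and -0.11.

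The 3 muscle miRNAs at least 2-fold lower became 0 with the offset of 10 and stayed 3 in every other setting, at a 1.5-fold threshold too. Among all miRNAs, 16 were 2-fold lower and 8 higher when medians were aligned. Quantile normalization gave 11 lower and 12 higher, the percentile over all 350 gave 20 lower and 7 higher, and aligned control features gave 23 lower and 7 higher; 2 were lower with the offset, and at 1.5-fold 16 were lower and 40 higher. Quantile normalization moved the difference of miR-1 from miR-133a to -0.38, of miR-133a from miR-133b to -0.24 and of miR-133b from miR-499 to -0.52. Bounds against the highest undetected signal gave no value, since no member was detected on 1 array only. No paired analysis was possible because each group has 1 array.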

Other observations

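In the authors' deposited ratio table, miR-206 has a ratio of 2.73 although it was not detected on either array. The same holds for other undetected miRNAs: of the 158 flagged 0 on both arrays, 30 have a deposited ratio of 2-fold or more, 14 higher and 16 lower. That is 19.0% of them, against 24 of the 157 (15.3%) detected on both arrays that the table names. A further 93 of the 158 were listed at exactly 1 on both arrays, as miR-208 was, and so have a deposited ratio of 1.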
